A study of Homo sapiens with 6 samples.

Results

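Of the 1451 protein-coding genes that RefSeq places on chromosome 19 of GRCh38.p14, 250 have a symbol made of ZNF and a number, and these 250 zinc finger genes were examined for occupancy by the transcription factor MYT1L. The rule for the members used symbol and chromosome alone and no measured value, but it was set with earlier results of these data known. The other 1201 protein-coding genes of the chromosome served as comparison. A peak was assigned to a gene when it overlapped the gene body or the 5 kb on either side of it, called the window here. The members were longer than the comparison genes, with a median body of 23254.5 bp against 12694 bp, and ranged from 2469 bp (ZNF580) to 487995 bp (ZNF536). The symbols of 4 members carry a hyphen.

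The libraries were made by CUT&RUN, in which an antibody directs a nuclease to a chromatin protein and the released DNA is sequenced. All 6 came from cells of H1, a human embryonic stem cell line without a genetic change (labelled WT), taken at day 30. An antibody to MYT1L was used in 4 of them and IgG, a control antibody that has no chromatin target, in the other 2. The design text calls the cells cortical interneurons derived from stem cells, whereas the sample entries give their cell type as embryonic stem cells. The peak lists hold no expression values, so neither name could be checked against marker genes, and all libraries share 1 cell line, so the values describe that line.

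Most zinc finger genes of chromosome 19 encode KRAB zinc finger proteins, which bind DNA, often within transposable elements, through tandem C2H2 fingers. Their KRAB domain recruits the corepressor TRIM28, which brings the histone H3 lysine 9 methyltransferase SETDB1 and heterochromatin protein 1. The genes arose by repeated duplication and stand in clusters along the chromosome, many of them primate-specific. MYT1L itself is a zinc finger factor of another kind, with CCHC fingers that recognise the core AAGTT, and is known for repressing non-neuronal genes in neurons.

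The sequences upstream of 4 members with strong peaks over the start and of 2 members without any peak are shown first, since most of the results concern starts. Each is the 250 bases before the outermost start listed in the RefSeq promoter table of GRCh38.p14, written 5′ to 3′ in the direction of transcription. Capitals mark the core AAGTT or its reverse complement AACTT. The 4 members with peaks are ZNF583 (chr19:56403764-56404013, plus strand), ZNF420 (chr19:37077972-37078221, plus), ZNF582 (chr19:56393535-56393784, minus) and ZNF773 (chr19:57499688-57499937, plus). The 2 without are ZNF578 (chr19:52453303-52453552, plus) and ZNF257 (chr19:22052234-22052483, plus).
ZNF583: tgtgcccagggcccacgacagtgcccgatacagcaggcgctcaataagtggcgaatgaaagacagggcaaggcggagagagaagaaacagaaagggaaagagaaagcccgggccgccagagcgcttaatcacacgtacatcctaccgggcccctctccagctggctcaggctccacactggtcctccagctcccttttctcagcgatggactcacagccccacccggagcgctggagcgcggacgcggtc
ZNF420: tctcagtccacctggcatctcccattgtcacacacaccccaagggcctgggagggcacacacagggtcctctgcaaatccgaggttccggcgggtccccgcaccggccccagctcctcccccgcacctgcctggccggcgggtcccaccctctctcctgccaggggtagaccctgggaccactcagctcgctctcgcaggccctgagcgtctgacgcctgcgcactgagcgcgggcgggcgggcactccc
ZNF582: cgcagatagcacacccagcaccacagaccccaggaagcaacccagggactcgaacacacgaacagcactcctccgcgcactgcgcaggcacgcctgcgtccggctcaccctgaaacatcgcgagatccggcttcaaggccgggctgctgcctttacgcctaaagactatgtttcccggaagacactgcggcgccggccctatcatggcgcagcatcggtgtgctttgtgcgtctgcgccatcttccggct
ZNF773: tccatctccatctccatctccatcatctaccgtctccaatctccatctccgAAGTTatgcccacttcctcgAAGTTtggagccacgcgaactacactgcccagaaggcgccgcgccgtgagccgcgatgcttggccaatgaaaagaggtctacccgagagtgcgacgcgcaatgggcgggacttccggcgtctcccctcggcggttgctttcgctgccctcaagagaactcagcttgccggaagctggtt
ZNF578: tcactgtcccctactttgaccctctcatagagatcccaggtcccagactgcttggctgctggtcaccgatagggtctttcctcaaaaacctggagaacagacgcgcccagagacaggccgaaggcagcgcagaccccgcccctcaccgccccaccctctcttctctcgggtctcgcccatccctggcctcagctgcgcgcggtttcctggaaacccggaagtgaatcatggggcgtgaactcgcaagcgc
ZNF257: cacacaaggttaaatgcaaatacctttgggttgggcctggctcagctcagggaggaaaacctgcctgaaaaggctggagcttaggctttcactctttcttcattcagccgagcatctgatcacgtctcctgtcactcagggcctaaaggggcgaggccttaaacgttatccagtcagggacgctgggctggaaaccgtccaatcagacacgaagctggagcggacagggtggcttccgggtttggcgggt

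Of the printed sequences only that of ZNF773 held the core, at 2 places. ZNF583, ZNF420 and ZNF582 had peaks in all 4 MYT1L libraries and no core in the printed bases. The highest summits at ZNF583, ZNF420, ZNF582 and ZNF773 lay 135, 60, 79 and 129 bp downstream of the nearest start, beyond those bases. Sequence at these summits was not read, so a missing match does not show that the peaks lacked the core. GC content of the 6 stretches ran from 55.2% in ZNF257 to 70.8% in ZNF420, and CpG dinucleotides from 10 in ZNF257 to 23 in ZNF582. ZNF578, without a peak, had a GC content of 62% and 16 CpG, and ZNF583, with the strongest peaks, 62% and 17 CpG. The core on either strand was counted in all 35116 promoter sequences of the table, each 300 bases long, and was present in 34.0% of them. It was present in 26.0% (57) of the 219 members with a listed sequence and in 22.4% (216) of the 966 other genes of the chromosome with one. Members whose promoter held the core had a reproducible region at that start in 47.4% of cases (27 of 57), and those without it in 50.6% (82 of 162). A match is a description of these letters and shows nothing about binding.

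At least 1 peak lay in the window of 202 members (80.8%) in MYT1L replicate 1, and the shares were 50.4%, 62.4% and 92.8% in MYT1L replicates 2, 3 and 4. In the controls 0.4% of members (1 gene) had a peak in IgG replicate 1 and 5.6% (14 genes) in IgG replicate 2. Every MYT1L library lay above both controls, with a mean of 71.6% ± 18.9 (SD, n = 4) against 3.0% ± 3.68 (SD, n = 2). The difference of 68.6 percentage points had p = 0.133 (exact permutation test over the libraries, two-sided), the smallest p this design allows. The labels give the libraries as separate samples and do not say that they came from separate cultures, so p-values measure only the spread between these libraries.

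Depth differed between the groups and was estimated from the deposited values as background fragments per kb. It was 5.99, 2.25, 5.26 and 4.78 in MYT1L replicates 1 to 4, and 1.55 and 0.9505 in IgG replicates 1 and 2. Thinning the MYT1L lists to the depth estimated for IgG replicate 1 left an expected 17.7%, 34.9%, 16.1% and 72.4% of members with a peak, while that control had 0.4%. Thinning to IgG replicate 2 left 8.16%, 19.2%, 7.27% and 49.7%, while that control had 5.6%. Each thinned MYT1L share was thus higher than that of either control. MYT1L replicates 1 and 3, however, lay inside the 95% Wilson interval of IgG replicate 2, 3.36% to 9.18%. Their differences from that control were within counting error, while MYT1L replicates 2 and 4 lay above the interval. The mean difference shrank from 68.6 points against both controls to 34.9 points against IgG replicate 1 and 15.5 points against IgG replicate 2. The SDs over the 4 thinned MYT1L libraries were 26.2 and 19.8 points.

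Other genes of the chromosome had a peak less often than the zinc finger genes in every MYT1L library. The shares of the 1201 other genes were 64.6%, 34.1%, 48.3% and 77.3% in MYT1L replicates 1 to 4. In the controls they were 0.833% and 2.58%. The members' excess was 16.2, 16.3, 14.1 and 15.5 percentage points in MYT1L replicates 1 to 4, with a mean of 15.5 ± 1.02 (SD, n = 4), and it was positive in 4 of 4 libraries (exact sign-flip permutation test, two-sided, p = 0.13, the smallest 4 libraries allow). In IgG replicates 1 and 2 it was -0.43 and 3.02 points. The excess was thus nearly the same size in libraries whose overall share of members with a peak ranged from 50.4% to 92.8%. Against the other genes of all chromosomes the excess was 10.2 ± 4.72 points (SD, n = 4). Thinned to the depths of IgG replicates 1 and 2, the excess within chromosome 19 was 11.6 ± 9.05 and 7.59 ± 7.64 points (SD, n = 4 each), positive in 4 of 4 libraries at both depths. At the depth of IgG replicate 2, however, MYT1L replicates 1 and 3 had 8.16% and 7.27% of members against 6.01% and 5.25% of other genes. Both excesses, the lower of them 2.03 points, were smaller than the 3.02 points of that control itself.

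**Figure D1:**
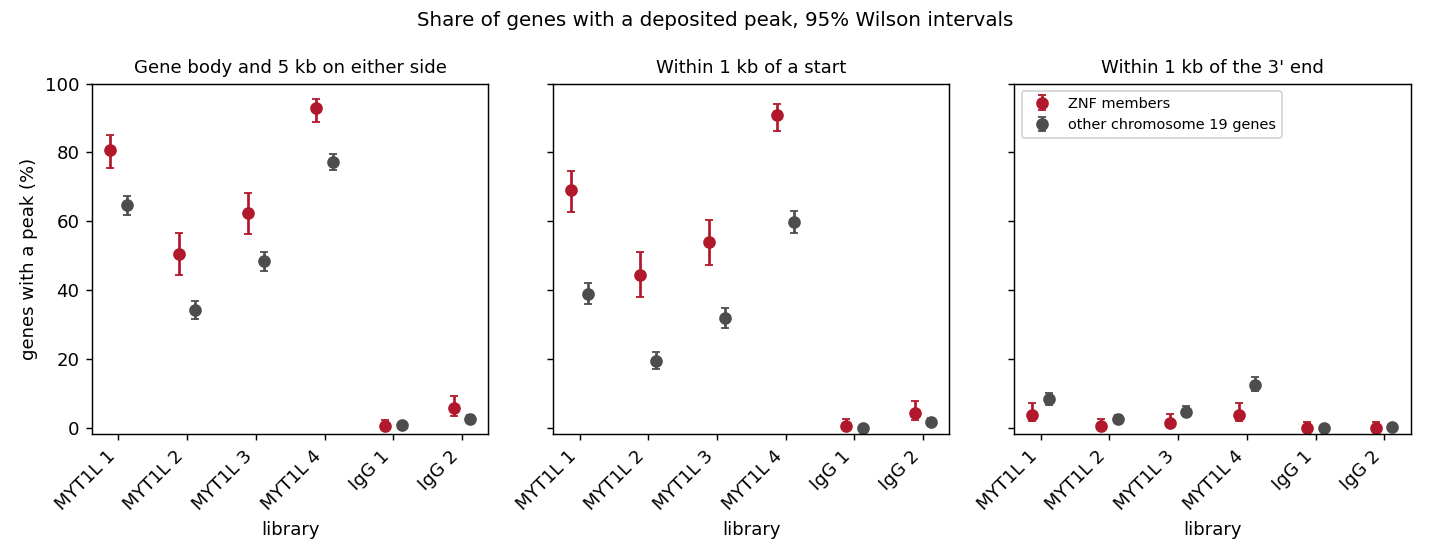
Share of genes with a deposited peak (y axis, percent) in each of the 6 libraries (x axis), for the ZNF members (red) and the other protein-coding genes of chromosome 19 (grey); points are shares and bars 95% Wilson intervals, which cover counting error only. Members lie above the other genes in every MYT1L library for the window (left) and the start (middle) and below them at the 3′ end (right), and both IgG libraries stay at or below 5.6%.

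The density of peaks did not show the same excess. Windows of members held 26.1, 13.9, 19.8 and 34.8 peaks per Mb in MYT1L replicates 1 to 4, and those of other genes 27.2, 11, 17.5 and 37.6 per Mb. The log2 ratio was 0.09 ± 0.21 (SD, n = 4; exact sign-flip permutation test, two-sided, p = 0.5), a difference within the spread between libraries. In numbers, 236, 126, 179 and 315 peaks of MYT1L replicates 1 to 4 lay at members. The IgG libraries had 1 and 14.

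Peaks over members gathered at transcription starts. A start is listed for 219 members, and a peak lay within 1 kb of one in 68.9%, 44.3%, 53.9% and 90.9% of them in MYT1L replicates 1 to 4. The corresponding shares of the other genes were 38.9%, 19.5%, 31.8% and 59.8%. IgG replicates 1 and 2 had 0.457% and 4.11% of members, and 0% and 1.76% of the other genes. The mean over the MYT1L libraries was 64.5% ± 20.3 of members against 37.5% ± 16.9 of other genes (SD, n = 4 each). The difference of 27.0 ± 4.25 points was positive in 4 of 4 libraries (exact sign-flip permutation test, two-sided, p = 0.13, the smallest possible). Against the other genes of all chromosomes, of which 53.8%, 32.4%, 46.2% and 68.6% had a peak at a start, the difference was 14.3 ± 6.20 points, positive in 4 of 4 libraries. At the depths of IgG replicates 1 and 2 the difference within chromosome 19 was 15.2 ± 12.3 and 9.46 ± 9.33 points (SD, n = 4 each).

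Of the summits assigned to members with a listed start, 65.3%, 77.1%, 68.1% and 67.1% in MYT1L replicates 1 to 4 lay at a start. For the other genes the shares were 40.3%, 47.3%, 49.0% and 46.3%. Summits at member starts lay a median of 50, 57, 4.5 and 108 bp downstream of the start in the 4 libraries. In MYT1L replicate 4, 57.1% of members had a summit in the first 250 bp downstream of a start and 25.6% in the 250 bp upstream, against 29.0% and 17.4% of the other genes. In the next 250 bp downstream the shares were 7.76% and 3.21%, and in the next 250 bp upstream the members were lower, with 3.20% against 8.39%.

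**Figure D2:**
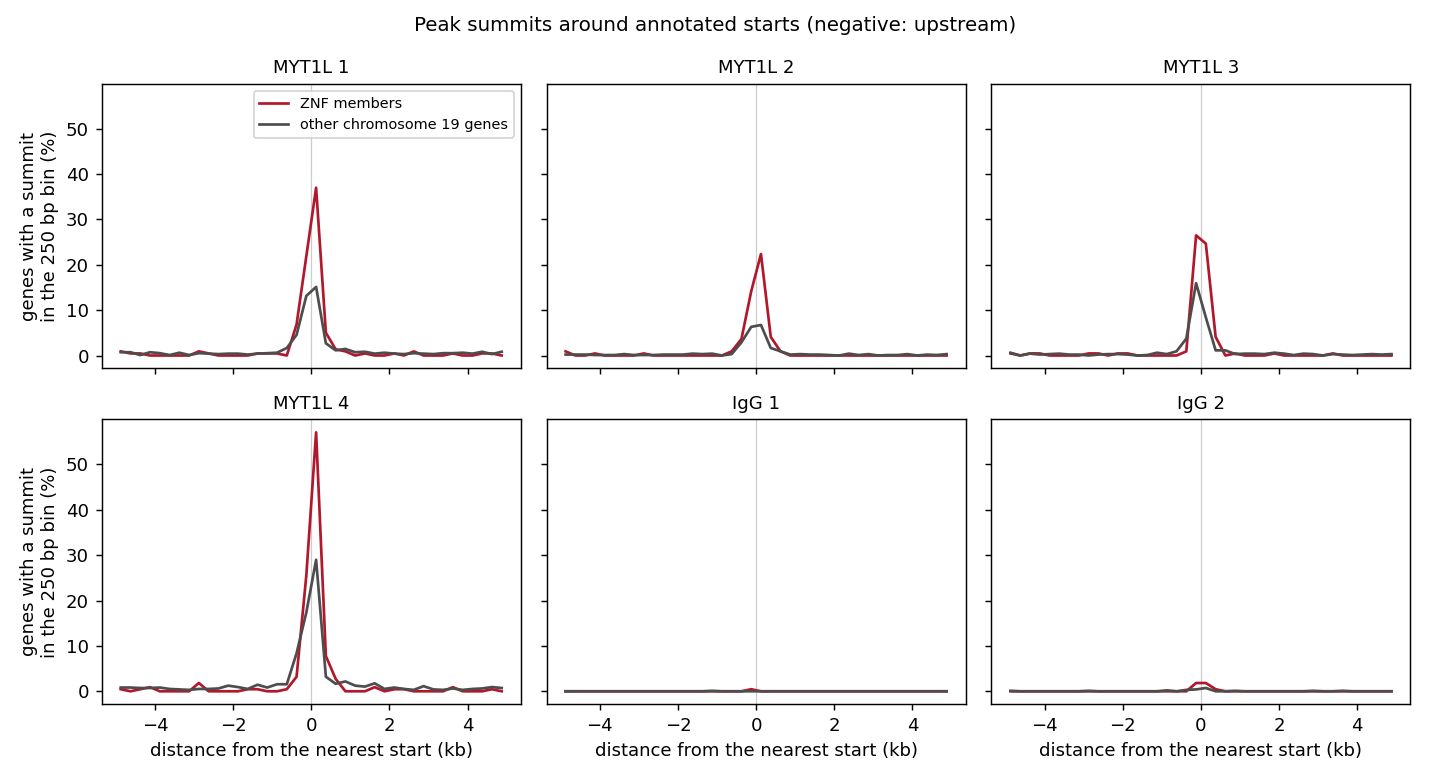
Share of genes with a peak summit (y axis, percent) in each 250 bp bin by distance from the nearest listed start (x axis, kb, negative upstream), 1 panel per library, for ZNF members (red) and other chromosome 19 genes (grey). In every MYT1L library the members' curve has 1 sharp maximum next to the start, reaching 57.1% in MYT1L replicate 4, and lies above that of the other genes in the bins on either side of the start but not throughout (3.20% against 8.39% one bin further upstream in replicate 4); IgG replicate 2 shows a low rise at the same place.

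At the 3′ end the order was the opposite. The corepressor-recruiting KRAB protein ZNF274 is known to bind within the 3′ ends of zinc finger genes, where they carry histone H3 lysine 9 methylation. Of the 219 members, 3.65%, 0.457%, 1.37% and 3.65% had a peak within 1 kb of the 3′ end in MYT1L replicates 1 to 4. The other genes had one in 8.28%, 2.48%, 4.66% and 12.4%. Members were lower in 4 of 4 libraries, with a mean difference of -4.68 ± 2.93 points (SD, n = 4; exact sign-flip permutation test, two-sided, p = 0.13, the smallest possible). Against the other genes of all chromosomes, with 4.47%, 1.91%, 2.74% and 5.84%, the difference was smaller, -1.46 ± 0.560 points, and members were again lower in 4 of 4 libraries. No member had an IgG peak there, which allows a share of up to 1.72% (upper bound of the 95% Wilson interval). Peaks that also lay near a start were kept in these counts, and genes were not matched by length. The other genes of the chromosome were shorter (median 12694 bp against 23254.5 bp), and the part of length in the difference was not tested.

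A region of overlapping peaks from at least 3 of the 4 MYT1L libraries, with no IgG peak, was called reproducible. Such a region lay in the window of 146 members, 58.4% (95% Wilson interval 52.2% to 64.3%), and of 440 other genes, 36.6% (34.0% to 39.4%). At a listed start the counts were 115 of 219 members, 52.5% (45.9% to 59.0%), and 254 of 966 other genes, 26.3% (23.6% to 29.2%). Over all protein-coding genes with a listed start the share there was 42.2% (6692 of 15842), nearer to that of the members. At a 3′ end the counts were 1 of 219 members (0.457%) and 33 of 966 other genes (3.42%), against 2.17% of all protein-coding genes. These intervals cover counting error only, and genes are not replicates, so no test was run. Peaks in all 4 libraries, not necessarily overlapping, were found for 90 members (36%), against 21.8% of the other genes and 32.8% of all protein-coding genes. The share of all protein-coding genes lay within the members' 95% Wilson interval, 30.3% to 42.1%. The share with a reproducible region moved with the strictness of the call: it was 36% of members with a −log10 q of at least 5, 28% with a shared region in all 4 libraries and 81.2% with 2 libraries.

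Longer windows meet more peaks, and the comparison was repeated within classes of gene length. In the class of 10 to 20 kb, 56.3% of 71 members and 31.3% of 335 other genes had a reproducible region. From 20 to 40 kb the shares were 59.3% of 108 members and 43.6% of 236 other genes, and from 40 to 80 kb they were 65.7% of 35 and 57.4% of 115. Among genes under 5 kb the members were lower, at 14.3% (1 of 7) against 29.9%. Weighted to the members' lengths, the other genes reached 41.0%, which left a difference of 17.4 points in place of 21.8.

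The higher share at starts was also compared within classes of promoter GC content. Median GC was 60% in the members' promoters and 64% in those of the other genes. Over the 4 MYT1L libraries a peak at the outermost start was 26.8 ± 5.15 points more frequent in members, and 29.6 ± 6.51 points when the other genes were weighted to the members' GC classes (SD, n = 4 each). Members with and without a reproducible region at the start had a median of 20 CpG each, while for the other genes the medians were 29 and 16.

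Of 267 ZNF genes on other chromosomes 176 had a reproducible region, 65.9% (interval 60.04% to 71.3%), and at listed starts 128 of 218 did, 58.7%. These intervals overlap those of the members of chromosome 19. Over all 20037 protein-coding genes the share was 48.0%, so the other genes of chromosome 19 lay below the genome and the members above it. Against the genes of all chromosomes the members' excess was 10.5 points, compared with 21.8 against their own chromosome. Of 15 other genes on chromosome 19 named ZSCAN, ZFP, ZIM or PEG3, 8 had a reproducible region (53.3%). This name-based list includes ZFP36, an RNA-binding protein with CCCH fingers.

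Partners through which KRAB zinc finger proteins act were looked up as a list, and 13 of 21 had a reproducible region in the window (61.9%, interval 40.9% to 79.2%), against the 48.0% of all genes. TRIM28, the corepressor bound by KRAB domains, lies on chromosome 19 itself and had 1, 0, 1 and 2 peaks in MYT1L replicates 1 to 4 and no reproducible region. SETDB1 had a single peak, in MYT1L replicate 4. Of the heterochromatin proteins, CBX1 and CBX3 had a reproducible region and CBX5 did not. Of subunits of the NuRD deacetylase and remodelling complex, HDAC2 and CHD4 had 2 each, CHD3 had 1, and HDAC1 had none, with 0, 0, 0 and 4 peaks in MYT1L replicates 1 to 4. The maintenance DNA methyltransferase DNMT1 had 1 peak in each of the 4 libraries, each at a start, and formed 1 reproducible region.

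Strength was described by the fold, the authors' enrichment of a peak summit over its local background. The median fold of peaks at members was 5.15, 5.73, 5.36 and 7.63 in MYT1L replicates 1 to 4, and that of peaks at other genes of the chromosome 4.35, 5.32, 4.80 and 5.20. Member peaks were stronger in 4 of 4 libraries, by 1.05 ± 0.935 (SD, n = 4; exact sign-flip permutation test, two-sided, p = 0.13, the smallest possible). Without MYT1L replicate 4 the difference was 0.594, so that library moved its size by more than 1.5 times, and against peaks at genes of all chromosomes it was 0.542 ± 0.801 (SD, n = 4). Member peaks were also wider, with medians of 390, 287.5, 337 and 544 bp against 328.5, 274, 309 and 426.5 bp. Peaks at starts and elsewhere were pooled in these values. At members with a listed start 65.3% to 77.1% of summits lay at a start, against 40.3% to 49.0% at other genes. The part of this mix in fold and width was not tested.

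Peaks at members stood higher in each whole list than peaks at the other genes of the chromosome, and most of all in MYT1L replicate 4. Ranked by −log10 q, their median position was at 42.1%, 45.1%, 47.2% and 29.8% of the list in MYT1L replicates 1 to 4, where 0% is the strongest peak. Peaks at the other genes stood at 55.8%, 51.3%, 53.9% and 47.3%. These ranks also pooled peaks at starts and elsewhere. The best member peak ranked 1115th of 27926, 514th of 12310, 1106th of 18966 and 369th of 30086. Among the 976 strongest peaks of each list, the length of the shorter control list, 0, 2, 0 and 6 lay at members, of the 236, 126, 179 and 315 there. Peaks at the other genes were about as rare among them, with 6, 12, 4 and 21 of 824, 333, 529 and 1138. Of those 976 peaks 63.9%, 57.1%, 62.4% and 47.5% overlapped an IgG peak. Over whole lists the overlap was 4.51%, 8.15%, 6.27% and 4.29%, and for the peaks at members it was near that, at 4.24%, 7.14%, 3.91% and 4.44%.

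With every list reduced to its 976 strongest peaks the differences in the share of genes with a peak in the window changed direction. The share of members with a peak was then lower in MYT1L than in IgG libraries, with a difference of -2.10 points, and lower in members than in other genes, with a difference of -0.45 ± 0.12 points (SD, n = 4). No member had a reproducible region left. The mean share of members with a peak at the start was 1.03% in the MYT1L libraries, against 2.28% in the IgG libraries. The contrasts with IgG in the window and at starts therefore rest on peaks below the strongest 976 of each MYT1L list.

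**Figure D3:**
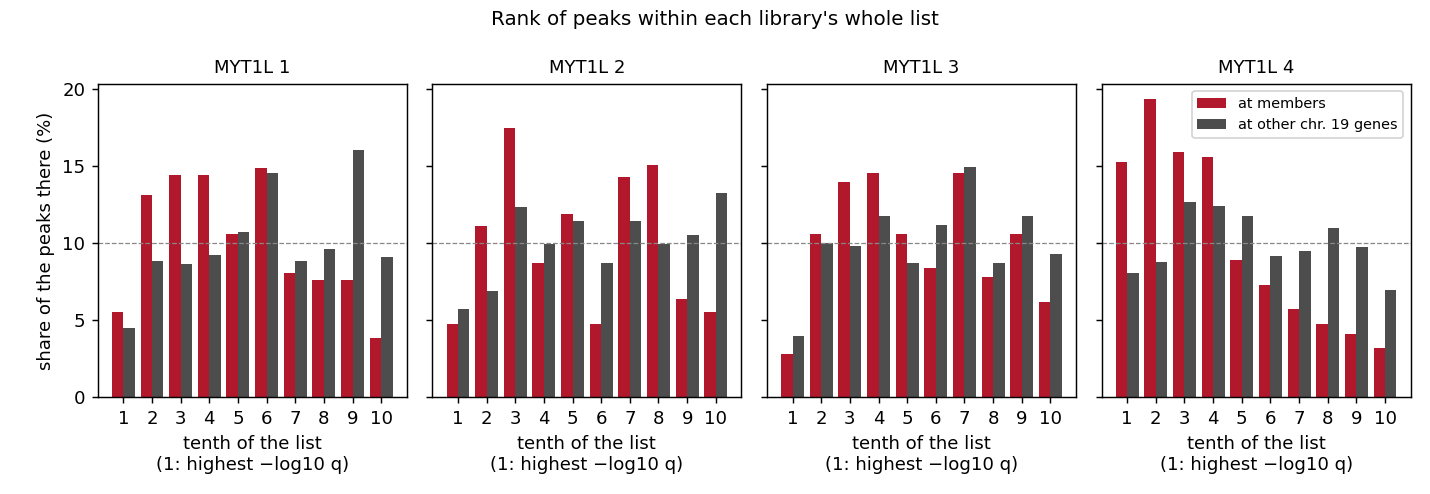
Share of the peaks at members (red) and at other chromosome 19 genes (grey) that fall in each 10% of a library's whole list ranked by −log10 q (x axis, 1 is the strongest 10%; y axis, percent; the dashed line marks an even spread of 10%), for the 4 MYT1L libraries. At position 1 MYT1L replicates 1 to 3 have 5.51%, 4.76% and 2.79% of the member peaks and replicate 4 has 15.2%, and at position 2 replicate 4 reaches 19.4%. For the other genes position 1 holds 4.49%, 5.71%, 3.97% and 8.08% in replicates 1 to 4, and position 2 holds 8.79% in replicate 4.

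Of the 541 reproducible regions on chromosome 19 without IgG peak, 148 lay at members, 86 of them with peaks in 3 libraries and 62 in all 4. A member's start lay within 1 kb of 113 of the 148, a start of another gene of 4, and no listed start of 31. Neighbours shared regions: 26 lay in the windows of at least 2 members and 15 in the window of another gene as well, so members do not count independently. The number of reproducible regions was 1 at 118 members and 2 at 28, and no member had more. Median width was 698 bp at members and 758 bp at other genes only, and the median of the mean fold 6.59 and 5.73.

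Members differed in how many MYT1L libraries had a peak. Peaks were present in all 4 libraries at 90 members, in 3 at 81, in 2 at 45 and in a single one at 23, and 11 members had none. Where 1 library alone had a peak it was MYT1L replicate 4 in 20 of 23 cases. Where 1 library alone lacked one it was MYT1L replicate 2, the shallowest, in 48 of 81 cases and MYT1L replicate 3 in 28. For the 90 members with peaks in all 4 libraries the strongest fold had a median of 5.86, 6.33, 5.77 and 9.77 in MYT1L replicates 1 to 4, and replicate 4 had the highest in 80 of them.

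The 10 members with the highest mean fold of their strongest peak are described as a ranking, with no test. ZNF583 stood first (chromosome 19, 56404014 to 56427364, plus strand), with folds of 8.98, 8.86, 4.99 and 15.1 in MYT1L replicates 1 to 4, a mean of 9.49 ± 4.20 (SD, n = 4). Its region of 874 bp covered the start and most of the printed sequence. Its summit lay 135 bp inside the gene, and MYT1L replicate 4 was the highest and replicate 3 the lowest.

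ZNF420 (37007902 to 37130368) had folds of 7.68, 11.9, 5.85 and 11, a mean of 9.13 ± 2.85. Its peaks lay over a start listed well inside the annotated body, at the end of the sequence printed above, and here MYT1L replicate 2 was the highest. ZNF582, transcribed from the minus strand close to ZNF583 (56382751 to 56393534), had folds of 8.52, 7.21, 6.41 and 12.7, a mean of 8.72 ± 2.82. Its region was the narrowest of those over the 4 printed starts, 406 bp.

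ZNF470 and the neighbouring ZNF470-DT, which the gene table lists as protein-coding and whose body overlaps it, shared 1 region of 936 bp with folds of 9.03, 6.52, 6.18 and 14.5. ZNF773 (57499938 to 57518437) had folds of 6.79, 7.53, 8.81 and 10.1, a mean of 8.31 ± 1.47, the smallest spread of the 10. Its region also lay in the window of ZNF419, which ranked among the 10 partly through it: at its own start ZNF419 had peaks in MYT1L replicates 3 and 4 only, with folds of 5.10 and 11.8.

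ZNF780B (40028260 to 40056231) had folds of 5.95, 4.93, 10.4 and 12.8, with MYT1L replicate 3 well above replicates 1 and 2. ZNF724 (23221599 to 23250394) had 6.02, 8.23, 7.63 and 11.8. ZNF506 (19792711 to 19821750), for which no start is listed, had 8.53, 9.17, 5.61 and 10.6, with the region at the right end of its body. None of the 10 had an IgG peak in its window, and in 9 of them MYT1L replicate 4 was the highest.

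Further members were described whatever their values, for what is known of them. ZNF91 and ZNF93 are KRAB proteins known to silence SVA and LINE-1 retrotransposons in primates. ZNF91 (23305004 to 23395471) had folds of 7.03, 7.04, 4.39 and 12.6 in MYT1L replicates 1 to 4. Replicate 3 was the lowest and had 2 peaks of that fold, at the start and inside the body, while the other libraries had 1 peak over the start. ZNF93 (19900946 to 19935575) had a peak in MYT1L replicates 1 and 4 only, with folds of 5.08 and 11.7, both within 1 kb of the start, and thus no reproducible region.

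ZNF43 (21804946 to 21852065) had 2 reproducible regions, at 21835721 to 21836275 with peaks in 4 libraries and at 21851655 to 21852201 with peaks in 3. Folds in the first were 7.49, 6.48, 4.79 and 11.6. ZNF675 had peaks in all 4 libraries but at different places, the start in replicates 1 and 4 (6.35 and 10.6) and the body in replicates 2 and 3 (4.68 and 4.91). A peak in all libraries was therefore not the same as a shared region.

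ZNF558, a KRAB protein studied in human neural progenitors as a repressor of the mitophagy gene SPATA18, had folds of 5.57, 5.27, 6.28 and 12 in a region of 1100 bp over a start. MYT1L replicate 4 stood apart from the other 3 libraries, whose values were close together. ZNF382 and ZNF649 encode KRAB repressors. ZNF382 had a region of 957 bp over its start with folds of 4.41, 5.38, 4.86 and 8.44. The same region covered the listed start of ZNF529, a member on the opposite strand. ZNF649, whose strand is not listed, had a reproducible region outside its body, with 5.87, 5.56 and 7.97 in MYT1L replicates 1, 2 and 4. This region covered the listed start of another member, ZNF577. Inside the body of ZNF649 only MYT1L replicate 4 had a peak, with a fold of 6.73.

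ZNF536, ZNF507 and ZNF296 encode C2H2 finger proteins without a KRAB domain. ZNF536, a brain-expressed repressor of neuronal differentiation and the longest member, had 13 regions over 487995 bp, none reproducible, with 3, 3, 3 and 6 peaks in MYT1L replicates 1 to 4. Its strongest folds were 4.94, 6.80, 4.58 and 5.31, and a peak at a start was found in replicate 4 only. ZNF507 (32345610 to 32387667) had 1 region of 535 bp over its start with folds of 7.06, 5.91, 5.22 and 12. ZNF296, a factor expressed in pluripotent cells, had no peak within 1 kb of its start, and its region lay upstream, at -2849 bp, with 5.32, 3.67 and 7.16 in MYT1L replicates 2, 3 and 4. ZNF536 thus had scattered peaks and ZNF507 a single shared one at its start.

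**Figure D4:**
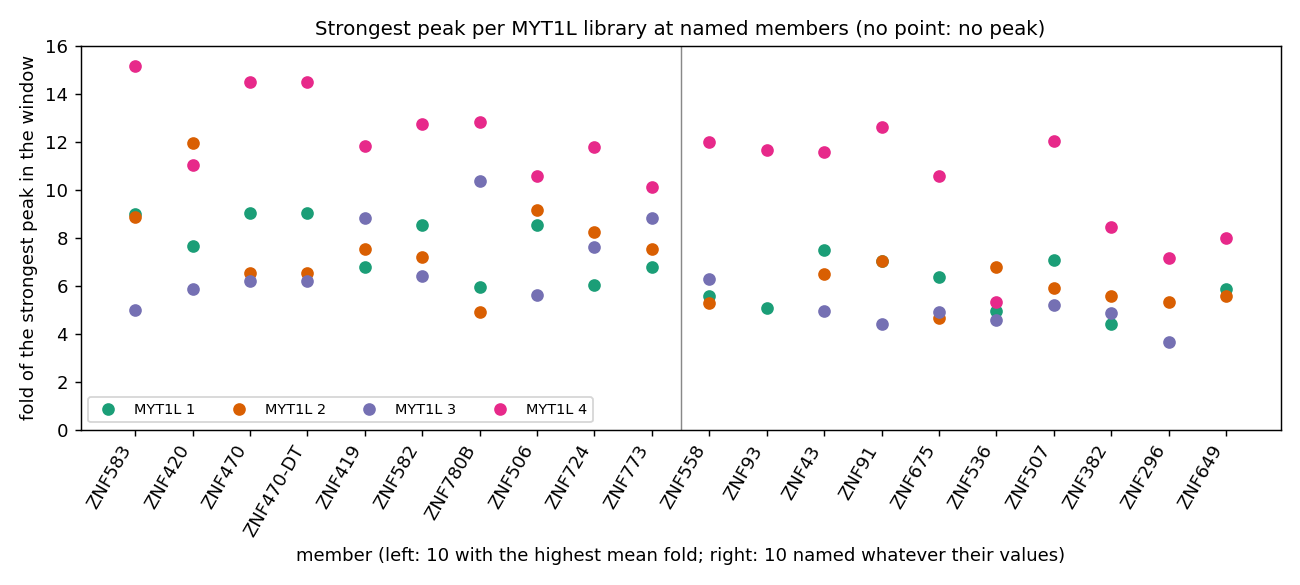
Fold of the strongest peak in the window (y axis, authors' enrichment over background) in each MYT1L library (coloured points) for the 10 members with the highest mean fold (left of the line) and 10 members named whatever their values (right); a missing point means no peak. MYT1L replicate 4 is highest at 9 of the 10 on the left, and ZNF536 has its highest value, 6.80, in replicate 2.

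Peaks per kb of window were highest at short genes. ZNF580, the shortest member, had 0.481 MYT1L peaks per kb over 12.5 kb, 3 each in replicates 1 and 4 and none in replicates 2 and 3. ZNF304, a KRAB protein, had 8 peaks, 2 in every library, in 2 reproducible regions, and ZNF416 had 7 in 2 reproducible regions. ZNF837 had 9 peaks and 2 reproducible regions, and ZNF419 had 7 peaks and 1. Part of these peaks lay at starts of other members. A reproducible region of ZNF304 covered the listed start of ZNF547, one of ZNF837 that of ZNF497, and the region of ZNF419 that of ZNF773. Their peaks were thus also counted for those members. All but ZNF580 stand in the last run of members on the chromosome, where neighbouring windows overlap. The window of ZNF580 also overlaps that of its neighbour ZNF581, and a peak of replicate 4 counted for ZNF580 covered the listed start of ZNF581.

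IgG peaks were found at 15 members, 1 in IgG replicate 1 and 14 in IgG replicate 2, with folds of 4.20 to 7.14. Among the 15, 14 coincided with a peak in at least 1 MYT1L list, 4 of them with peaks of all 4, and 10 lay within 1 kb of a listed start. The IgG peak at ZNF585A met no MYT1L peak, and those at ZNF221 and ZNF8, named for this after their values were seen, met one of MYT1L replicate 4 only. ZNF181 had the highest IgG fold, 7.14, against 4.998 and 11.9 in MYT1L replicates 2 and 4 and no peak in replicates 1 and 3. ZNF211 had 6.71 in IgG replicate 2 and 6.41, 5.03, 7.21 and 14.0 in the MYT1L libraries. ZNF333 had 6.67 in the control and 4.67, 5.12 and 9.58 in MYT1L replicates 1, 2 and 4.

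ZNF274, the factor that binds 3′ ends of zinc finger genes, had 6.16 in IgG replicate 2 at its own start and 9.22, 4.17, 4.85 and 13.4 in MYT1L replicates 1 to 4. ZNF548 had the single peak of IgG replicate 1, with 5.30. The others with an IgG fold among the 10 highest were ZNF524, ZNF653, ZNF432, ZNF557 and ZNF414, with 5.19 to 5.91. A fold is relative to its own library's background, so folds of MYT1L and IgG lists are given side by side and not compared. Keeping regions with an IgG peak raised the share of members with a reproducible region from 58.4% to 62%.

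The 11 members without a MYT1L peak (4.4%, against 13.7% of the other genes) came from 6 runs of members with gaps of at most 250 kb, and 7 of them from 2 runs. ZNF257, ZNF492, ZNF99 and ZNF98 lie in the same run of 25 members, and ZNF578, ZNF528 and ZNF534 in another run of 41 (the last 2, and those that follow, were picked for having no peak and not by the naming rule). The remaining 4 are ZNF177, ZNF404, ZNF114 and ZNF585A, the last of which had an IgG peak. The 5 longest without a peak in any library, ZNF578, ZNF257, ZNF492, ZNF99 and ZNF98, have bodies of 31328 to 63330 bp, longer than the median member. Duplicated members can share near-identical sequence, so that their peaks are uncertain, and how reads with several positions were treated is not given in the sources used here.

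Members were grouped into runs wherever the gap to the next member was at most 250 kb, which gave 26 runs, 8 of them with at least 10 members and 205 members in all. A reproducible region lay at 66.7% of 12 members in the run from 9.14 Mb, 68% of 25 from 11.5 Mb, 64% of 25 from 20.5 Mb and 76.9% of 26 from 36.2 Mb. It lay at 47.8% of 23 from 43.5 Mb, 31.7% of 41 from 51.6 Mb, 90% of 10 from 56.1 Mb and 69.8% of 43 from 57.2 Mb.

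The run of 41 was not low in every library. At listed starts its shares were 50%, 17.6%, 26.5% and 88.2% in MYT1L replicates 1 to 4, against 75%, 45%, 70% and 100% in the run of 43 and 88.9%, 88.9%, 77.8% and 100% in the run of 10. It was the lowest of the 8 long runs in MYT1L replicates 2 and 3, and in replicate 4 it stood above 2 of them. Other genes within the span of the run of 41 had a reproducible region in 3 of 14 cases (21.4%), and those within the run of 43 in 7 of 13. A run of 7 short members from 55.5 Mb (ZNF628, ZNF579, ZNF524, ZNF865, ZNF784, ZNF581 and ZNF580) had no reproducible region without IgG peak. The values of these runs are descriptions, and no run was tested against another.

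**Figure D5:**
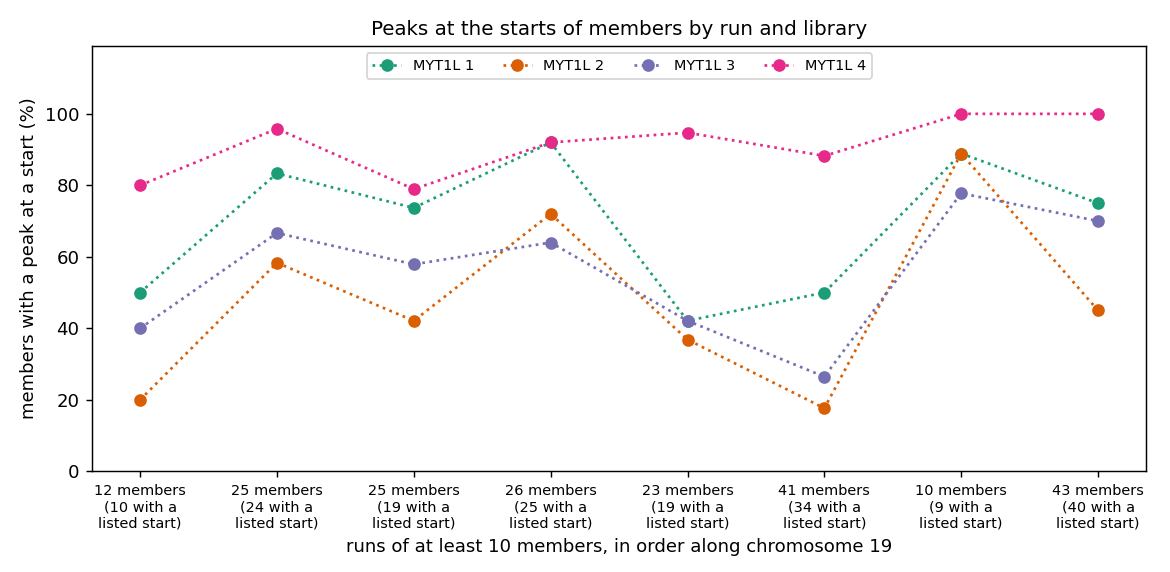
Share of members with a peak within 1 kb of a listed start (y axis, percent) in each MYT1L library (coloured points, joined by dotted lines for reading only) for the 8 runs of at least 10 members in chromosomal order (x axis). The run of 41 members is low in MYT1L replicates 1 to 3, with 50%, 17.6% and 26.5%, and reaches 88.2% in replicate 4.

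The longest stretch of the chromosome without a protein-coding gene, 5.08 Mb, separates the members into 84 before and 166 after it. A reproducible region lay at 53 of the 84 (63.1%) and at 93 of the 166 (56.0%). Members outside the 8 long runs had one in 22 of 45 cases (48.9%). That share was below those of 6 of the 8 long runs, again without a test.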

How the data were processed

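MYT1L (4) and IgG (2) CUT&RUN libraries of H1-derived cells were each represented by 1 peak list. The submitters' processing notes name MACS2 and hg38; the aligner, settings and treatment of reads with several positions are not given in the sources used here. For each peak the authors deposited a fold enrichment (a ratio over background), a −log10 p and a −log10 q value, a score and a summit. Peak names in the MYT1L lists carry sample numbers 1 higher than the titles; titles were followed.

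Genes, strands and starts came from the RefSeq tables of GRCh38.p14; of the 250 members, 219 matched a promoter entry (117 on the plus strand and 102 on the minus strand, 36 with several starts). Overlap needed 1 bp and was checked with bedtools 2.31.1 (0 differences over 8706 pairs of a gene and a library). Reproducible regions needed at least 3 MYT1L libraries and no IgG peak. Depth was estimated by solving the MACS2 formulas for whole-number pileups and background. Thinning reduced the pileups binomially and multiplied the background by the same share of fragments. The scripts were tested on simulated data. These are estimates, since total read numbers are unknown. Tests were exact permutations over libraries, and analyses ran in Python 3.11.15. The members and lists were chosen with earlier results of these data known. Named genes were the 10 members with the highest mean strongest fold among those with peaks in all 4 libraries, up to 10 with an IgG peak (highest fold), the 5 with most peaks per kb, the 5 longest without a peak in any library, and 10 named whatever their values. Alternatives covered the window, thresholds, region definition, gene set and each library left out. A planned count of fingers per protein was not run, because it needs protein sequences, which were not used here.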

Additional observations from a re-analysis of the deposited data

Results flagged for a closer look

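In groups of 4 MYT1L libraries, 3 of the 45 sets of values examined held a library far from the other 3, and all 3 times it was MYT1L replicate 4. Chance alone marks about 1 in 20 such groups. The strongest fold at ZNF416 was 10.2 in MYT1L replicate 4, against 5.14, 5.83 and 5.85 in replicates 1 to 3. The strongest fold at ZNF558 was 12 there, against 5.57, 5.27 and 6.28. The share of members with a peak at a start in the run of 23 members from 43.5 Mb was 94.7% in MYT1L replicate 4, against 42.1%, 36.8% and 42.1%. MYT1L replicate 4 did not have the highest estimated depth, with 4.78 background fragments per kb against 5.99 in replicate 1. The part of depth or of any other property of this library in these values was not tested.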

How the results depend on the processing

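Thinning, GC classes and the comparisons of starts and 3′ ends with all chromosomes were chosen after seeing the data, and the remaining alternatives were planned. With equal numbers of top peaks (976 per list), MYT1L minus IgG was -2.10 points in place of 68.6, members minus others -0.453 in place of 15.5, and the latter relative to IgG -1.75 in place of 14.2. The 3 shares with a reproducible region (members, their excess, and the excess at equal lengths) and the share at the 3′ end were then 0; fewer peaks remain by construction. These 3 differences kept their direction in all their other alternatives (16, 16 and 15). Members with a reproducible region, 58.4%, became 36% with a −log10 q of at least 5, 51.6% with each peak given to its nearest gene, 81.2% with at least 2 libraries and 28% with all 4. Their excess over other genes, 21.8 points, was 13.6 with all 4 libraries and 10.5 against genes of all chromosomes. Against those, members minus others was 10.2 points, the same relative to IgG 9.49, at starts 14.3 in place of 27.0, at 3′ ends -1.46 in place of -4.68, and in fold 0.542 in place of 1.05. With a window of 10 kb the difference relative to IgG was 8.71. Leaving out 1 library at a time gave 61.5 to 75.7 for MYT1L minus IgG, 15.3 to 16 for members minus others, and 12.5 to 16 relative to IgG. It gave 58.8% to 80.4% for members with a reproducible region (67.6% without MYT1L replicate 1, 75.2% without 3), since 2 of 3 libraries then sufficed, and 21.6 to 24.7 points for their excess. The excess at equal lengths was 16.3 to 19.9, the share at starts 55.7% to 71.2%, that at 3′ ends 1.83% to 2.89% and the difference in fold 0.594 to 1.27. The groups share replicate numbers 1 and 2, which the labels do not describe as pairs. With the replicate block the first difference was 62.6 points and the third 15 (exact sign-flip permutation p = 0.5 each, the smallest 2 pairs allow). Tests on so few libraries cannot pass 0.05 and say nothing about stability. The depth of the IgG lists limits what their low counts show.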
